A study of Mus musculus with 18 samples.

Results

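The genes of MHC class I antigen presentation were described in left ventricle (LV) and right ventricle (RV) of mouse hearts after cold ischemic storage (CIS) and reperfusion. They are the 10 genes H2-K1, H2-D1, B2m, Tap1, Tap2, Tapbp, Psmb8, Psmb9, Psmb10, and Nlrc5, of 34989 genes measured. They were chosen by name for their place in the pathway, and the estimated counts of all transcripts of a gene were summed in each library. All 10 were found in the files, and all 10 passed the filter on low counts in every comparison.

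Hearts came from mice of the strain given as C57B/L6 at an age labelled 12 weeks. All groups, the 0 h hearts included, received 10 mL of histidine-tryptophan-ketoglutarate (HTK) solution and, after 0, 4, or 8 h in cold HTK, were perfused outside the body with Krebs buffer for 1 h before both ventricles were frozen. The 6 groups, LV_0h, LV_4h, LV_8h, RV_0h, RV_4h, and RV_8h, had 3 libraries each, numbered 1 to 3. No gene was altered. By the methods of the study, the mice received heparin and isoflurane anesthesia before the hearts were taken. The methods of the study give a younger age, mice of both sexes, and another volume of HTK, and the labels give no sex. Buffer rather than blood ran through the hearts, no recipient was involved, and RNA came from whole ventricle, so that the cell that held a transcript, or a change in the number of cells against a change in RNA per cell, cannot be told apart.

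The 18 libraries held 22552581 to 46236771 estimated counts. The mitochondrial share was higher after 8 h, at 32.0% to 34.4% in LV and 33.3% to 34.2% in RV, than at 0 h, at 24.1% to 28.3% in LV and 22.7% to 32.6% in RV, and after 4 h it was 24.9% to 26.4% in LV and 26.1% to 27.7% in RV. Its part in the results was not tested. Cardiomyocyte markers summed to 25973 to 63197 CPM, the counts of a gene scaled to a fixed library size, and all 5 were detected in every library, as the label heart calls for. The stored libraries numbered 3 stood apart from the other stored libraries for the class I genes, so results are given below with and without them. Those 4 libraries also held 1.47 to 2.44 CPM of the Y-linked gene Ddx3y, and the 0 h libraries numbered 2 held 1.69 CPM in LV and 1.86 CPM in RV. The remaining libraries held 62.1 to 115 CPM of Ddx3y.

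MHC class I molecules show peptides from inside a cell to CD8 T cells and to receptors of NK cells. Proteins are cut to peptides by the proteasome, in which the inducible subunits Psmb8, Psmb9, and Psmb10 can take the place of constitutive catalytic subunits. The transporter made of Tap1 and Tap2 pumps the peptides into the endoplasmic reticulum, where tapasin, encoded by Tapbp, holds an empty class I molecule near the transporter. The molecule itself is a heavy chain, here H2-K1 or H2-D1, bound to the light chain beta-2 microglobulin from B2m. Nlrc5 is the transactivator of class I genes, and interferons raise most of the pathway. In heart transplantation class I molecules of the donor are main targets of rejection.

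Of the 10 genes, 7 lie on chromosome 17. In GRCm38 with GENCODE M21, Psmb9 (chr17:34181987-34187764, minus strand), Tap1 (chr17:34187553-34197225, plus strand), Psmb8 (chr17:34197721-34201454, plus strand), and Tap2 (chr17:34203527-34216321, plus strand) are neighbors. H2-K1 (chr17:33996017-34000347, minus strand), Tapbp (chr17:33915899-33929292, plus strand), and H2-D1 (chr17:35262730-35267499, plus strand) lie on either side of them. B2m is at chr2:122147686-122153083 on the plus strand. Psmb10 (chr8:105935735-105938444, minus strand) and Nlrc5 (chr8:94434356-94527272, plus strand) are on chromosome 8.

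Promoter sequences of RefSeq (GRCm38.p6, 250 bases before to 50 after the start of a gene) were matched for 8 of the 10 genes, and Tap2 and Nlrc5 had no entry. The promoters of H2-K1, H2-D1, B2m, and Tap1 are shown because these 4 genes were the ones called after 8 h in LV. Capitals mark matches, on either strand, to the core of the interferon-stimulated response element (ISRE, GAAA and GAAA with any 2 bases between them) or to GAANNGAAA, which is the ISRE core with 1 base fewer. They also mark TTCNNNGAA (gamma-activated site), the NF-kB site (GGG, any 2 bases, TT, any base, and CC), TGACG (part of the cyclic AMP response element), and CCAAT (Y box). The windows are chr17:34000298-34000597 on the minus strand for H2-K1, chr17:35262844-35263143 on the plus strand for H2-D1, chr2:122147437-122147736 on the plus strand for B2m, and chr17:34187306-34187605 on the plus strand for Tap1.
H2-K1: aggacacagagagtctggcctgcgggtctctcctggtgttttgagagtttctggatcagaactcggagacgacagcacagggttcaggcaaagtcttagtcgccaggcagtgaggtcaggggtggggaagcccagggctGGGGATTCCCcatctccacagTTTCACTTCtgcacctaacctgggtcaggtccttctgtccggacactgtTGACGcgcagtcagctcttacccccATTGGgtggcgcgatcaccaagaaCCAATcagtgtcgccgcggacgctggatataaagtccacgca
H2-D1: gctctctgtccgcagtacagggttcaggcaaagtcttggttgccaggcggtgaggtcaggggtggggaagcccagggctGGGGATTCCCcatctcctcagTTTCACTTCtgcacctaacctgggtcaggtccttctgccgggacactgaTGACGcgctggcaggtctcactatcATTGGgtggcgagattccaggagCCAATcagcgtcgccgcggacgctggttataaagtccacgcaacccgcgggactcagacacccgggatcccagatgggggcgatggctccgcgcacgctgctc
B2m: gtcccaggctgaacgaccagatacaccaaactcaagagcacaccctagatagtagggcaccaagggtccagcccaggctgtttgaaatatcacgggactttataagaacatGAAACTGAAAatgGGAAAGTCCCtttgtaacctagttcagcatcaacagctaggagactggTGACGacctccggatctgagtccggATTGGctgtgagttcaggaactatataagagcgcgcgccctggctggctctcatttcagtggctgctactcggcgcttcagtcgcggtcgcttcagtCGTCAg
Tap1: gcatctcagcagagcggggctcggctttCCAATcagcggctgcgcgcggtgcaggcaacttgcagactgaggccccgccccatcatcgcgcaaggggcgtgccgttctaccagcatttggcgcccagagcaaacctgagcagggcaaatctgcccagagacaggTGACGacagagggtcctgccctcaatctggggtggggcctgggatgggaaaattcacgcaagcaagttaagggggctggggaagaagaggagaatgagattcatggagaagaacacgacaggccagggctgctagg

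Going from 5′ to 3′, the H2-K1 window held an NF-kB site match 111 bases before the start, one to GAANNGAAA at 90, and one to TGACG at 41. The H2-D1 window held them in the same order, at 171, 150, and 101 bases before its start. When the windows were aligned with a shift of 60 bases, 176 of 240 bases (73.3%) were identical. In B2m an ISRE core match at 139 bases came before an NF-kB site match at 126 and one to TGACG at 78. The Tap1 window held TGACG at 86 bases and CCAAT at 222, and it shared 275 bases with the window of Psmb9, which is read in the other direction.

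Of the 8 genes, 3 held the NF-kB site letters in a window, against 5.48% of the 27025 genes with promoter windows. The ISRE core was in 1, B2m (3.99% of genes), TTCNNNGAA in 1, Psmb8 (9.55%), and CCAAT in 6 (41.1%). The full TGACGT was in 0 of the 8 and in 8.37% of genes. The shorter TGACG and GAANNGAAA were added after the promoters were seen, and were in 5 (23.05% of genes) and 2 (8.68%). The 8 are not independent, given the likeness of H2-K1 to H2-D1 and the bases that Tap1 and Psmb9 share. GAANNGAAA differs from the ISRE core by spacing, TGACGT contains TGACG, and a match of letters is no proof of binding.

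At 0 h B2m had the highest level of the 10 per length, with 240.3 ± 28.5 TPM (a share of transcripts scaled for length, mean ± SD, n = 3) in LV and 209 ± 14.3 TPM in RV. H2-D1 (149 ± 20.2 TPM) and H2-K1 (143 ± 36.0 TPM) came next in LV and did not differ beyond their spread. Psmb10 (40.0 ± 2.55 TPM), Tapbp (28.5 ± 3.07 TPM), Tap2 (16.8 ± 2.25 TPM), and Psmb8 (10.7 ± 1.32 TPM) followed in LV, with ranges that did not overlap. Tap1 (5.75 ± 0.824 TPM), Psmb9 (4.46 ± 1.2 TPM), and Nlrc5 (2.59 ± 0.336 TPM) were the lowest in LV, and the ranges of Tap1 and Psmb9 overlapped. In RV at 0 h the order was the same, and there Psmb10 (36.9 ± 4.47 TPM) and Tapbp (32.7 ± 5.18 TPM) overlapped. The TPM of a gene sums all its transcripts, those that encode no protein included. The order is therefore not that of coding transcripts alone. The TPM of all 10 genes summed to 531 to 692 in the 0 h libraries and reached 4060.6 in the RV library numbered 3 after 8 h.

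**Figure D1:**
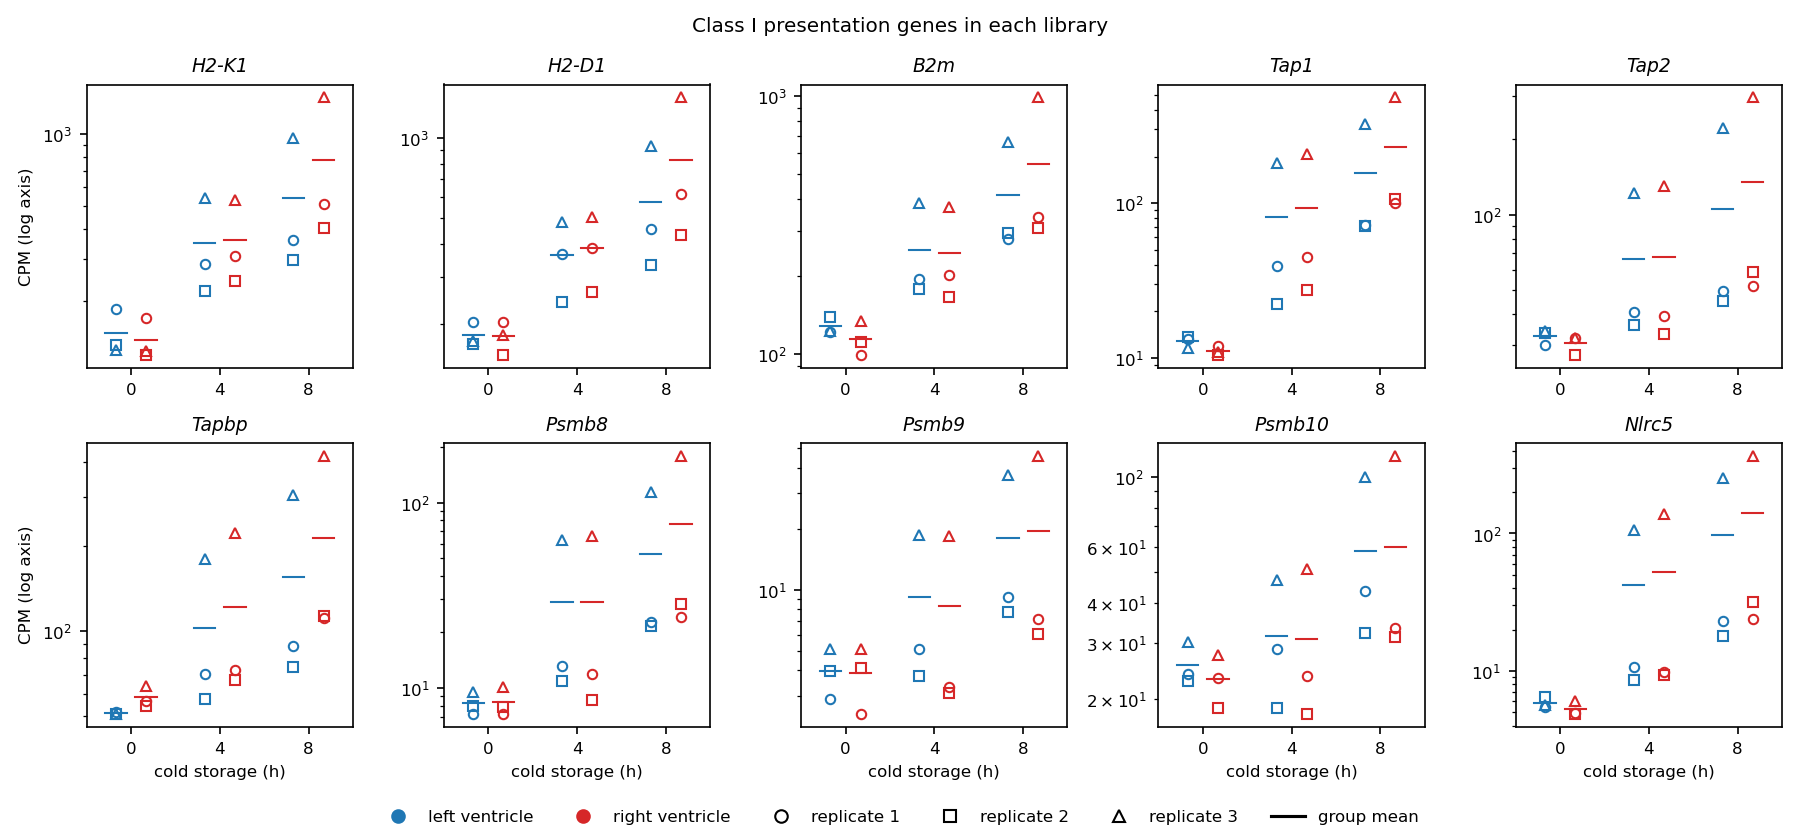
Level of each of the 10 class I genes in CPM (log axis) in each library by ventricle and hours of CIS, with 1 point for each library, its symbol showing the replicate number, and bars at the group means. The stored libraries numbered 3 are the highest point of each stored group for every gene, and H2-K1, for example, reaches 963 CPM in LV and 1420 CPM in RV after 8 h.

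The first question was whether the pathway changed with the length of CIS. Called genes had an edgeR Benjamini-Hochberg adjusted p under 0.1 over all genes tested and a fold change over 1.5. After 8 h, 4 of the 10 genes were called higher in LV (H2-K1, H2-D1, B2m, and Tap1), where 5.46% of all genes tested were called higher. In RV 8 of 10 were called higher after 8 h, all but Psmb9 and Psmb10, against 13% of all genes. After 4 h, 1 gene, Tap1, was called higher in RV (6.17% of all genes) and 0 were called in LV (2.4% of all genes). In LV 5 had an unadjusted p under 0.05 and DESeq2 called 3, where it called 693 of 15020 genes higher. None of the 10 genes was called lower in any of the 4 comparisons. The counts rested on single libraries. In LV after 8 h the count was 0 without any one of the 0 h libraries and 1 without LV_8h replicate 3. Over all genes the number called higher fell there too, from 795 to 503, 130, and 234 without LV_0h replicates 1, 2, and 3. It was 347 without LV_8h replicate 3. In RV after 8 h the count of the 10 genes was 4 without any one 0 h library or RV_8h replicate 3. Over all genes the number fell from 1896 to 1444, 1025, and 1207 without RV_0h replicates 1, 2, and 3. It was 1329 without RV_8h replicate 3. Tap1 lost its call in RV after 4 h without any one 0 h library or RV_4h replicate 3.

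The median log2 fold change of the 10 genes was 1.11 after 4 h and 1.79 after 8 h in LV, and 1.15 and 2.33 in RV. Over all genes tested it lay between -0.072 and 0.0034. Every 8 h library lay above every 0 h library of its ventricle for all 10 genes, in LV (15.5% of all genes) and in RV (18.5%). After 4 h this held for 8 genes in LV, all but Psmb9 and Psmb10 (12.9% of all genes), and for 7 in RV, all but Psmb8, Psmb9, and Psmb10 (15.1%).

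Same-numbered libraries deviated together between the RV groups, so the numbers were also entered as a block. Ddx3y in the RV libraries numbered 2 was 1.86 CPM at 0 h and 100 and 97.3 CPM after 4 and 8 h. A number was thus not 1 animal across storage times. The block was chosen from correlations in these same data, as low as 0.111 between RV_0h and RV_4h. Its p-values therefore rest on no known pairing. With the replicate block, 4 genes were called higher in RV after 4 h (8.45% of all genes), with H2-K1 (adjusted p = 0.0666), H2-D1 (0.0638), and B2m (0.0574) beside Tap1. After 8 h in RV the block added Psmb9 (adjusted p = 0.0351) and Psmb10 (0.0330), so that all 10 were called (15.5% of all genes).

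**Figure D2:**
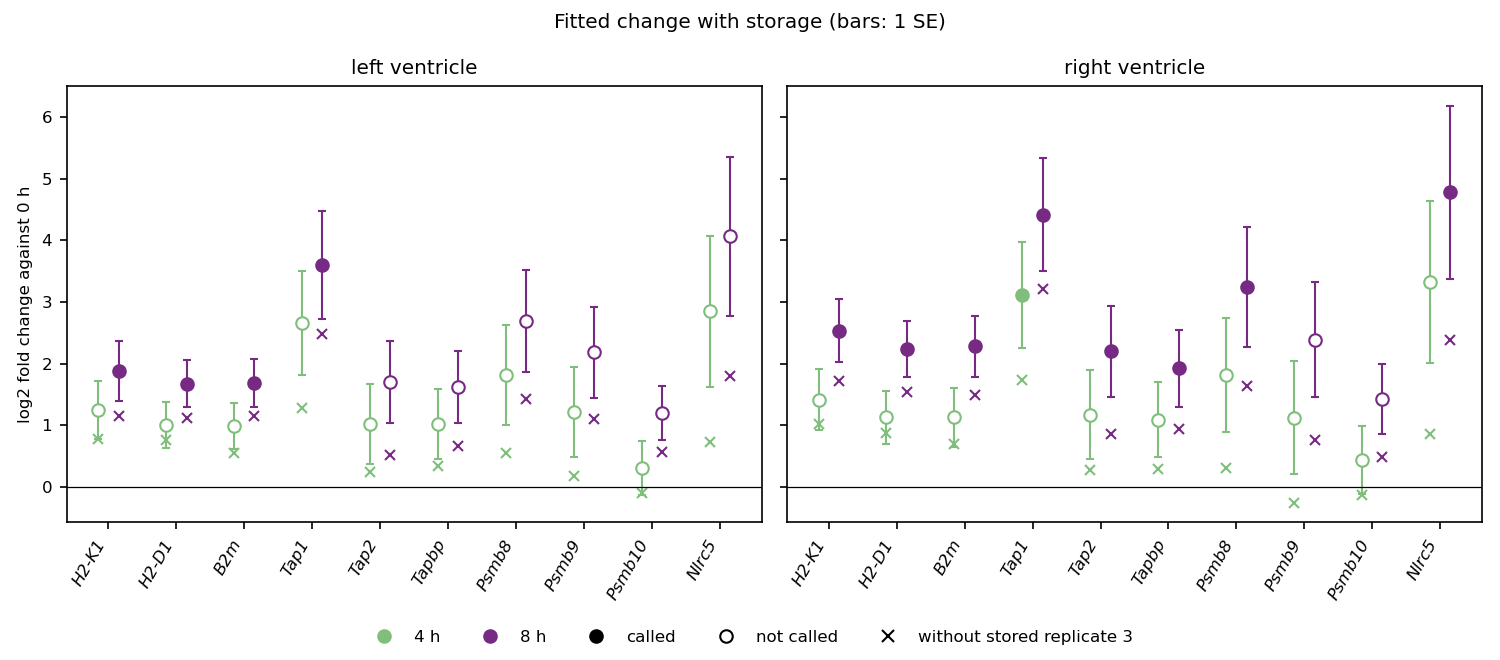
Fitted log2 fold change against 0 h of each of the 10 genes after 4 and 8 h of CIS in LV and RV, with bars of 1 SE, filled points for genes called by edgeR, and crosses for the fit without the stored libraries numbered 3. All 10 points lie above 0 in each of the 4 comparisons, and the crosses of Psmb10 after 4 h lie below it at -0.11 in LV and -0.14 in RV.

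H2-K1 and H2-D1 encode the heavy chains, and both rose after 8 h in each ventricle. H2-K1 in LV was at 186, 131, and 125 CPM after 0 h, 285, 220.2, and 540.0 CPM after 4 h, and 359.5, 297, and 963 CPM after 8 h. In RV its level was 170.3, 118, and 124 CPM after 0 h, 308, 243, and 531 CPM after 4 h, and 509.9, 404, and 1419.8 CPM after 8 h. No stored library overlapped the 0 h libraries, and the library numbered 3 was the highest after 4 and after 8 h. The log2 fold change of H2-K1 was 1.24 ± 0.48 (SE, edgeR adjusted p = 0.253) after 4 h and 1.88 ± 0.48 (SE, edgeR adjusted p = 0.0689) after 8 h in LV, and 1.41 ± 0.49 (SE, edgeR adjusted p = 0.131) and 2.53 ± 0.51 (SE, edgeR adjusted p = 0.0139) in RV.

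H2-D1 in LV was at 204, 168, and 172 CPM after 0 h, 367, 241, and 482 CPM after 4 h, and 456, 334, and 939 CPM after 8 h. The RV libraries held 203, 152, and 182 CPM after 0 h, 387, 264, and 506 CPM after 4 h, and 619.5, 431, and 1427 CPM after 8 h of H2-D1. Here too the stored and the 0 h libraries did not overlap in either ventricle. Its log2 fold change in LV was 1.01 ± 0.37 (SE, edgeR adjusted p = 0.240) after 4 h and 1.67 ± 0.38 (SE, edgeR adjusted p = 0.0486) after 8 h. In RV it was 1.13 ± 0.43 (SE, edgeR adjusted p = 0.166) and 2.24 ± 0.45 (SE, edgeR adjusted p = 0.0134).

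B2m, the light chain that every classical class I molecule needs, followed the heavy chains. Its level in LV was 122, 139, and 123 CPM after 0 h, 195, 179, and 384 CPM after 4 h, and 279, 295, and 659.6 CPM after 8 h. In RV B2m was at 98.9, 111, and 135 CPM after 0 h, 203, 166, and 372 CPM after 4 h, and 340.3, 307, and 986 CPM after 8 h. The stored libraries lay above the 0 h libraries in both ventricles. The log2 fold change of B2m was 0.98 ± 0.38 (SE, edgeR adjusted p = 0.258) and 1.69 ± 0.39 (SE, edgeR adjusted p = 0.0497) after 4 and 8 h in LV, and 1.12 ± 0.48 (SE, edgeR adjusted p = 0.213) and 2.28 ± 0.50 (SE, edgeR adjusted p = 0.0183) in RV. The ratio of the TPM of H2-K1 and H2-D1 together to that of B2m stayed between 1.02 and 1.86 over the 18 libraries, with 1.02 to 1.38 after 8 h in LV and 1.28 to 1.55 after 8 h in RV.

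Tap1, the first chain of the peptide transporter, was the gene called in the most comparisons. The LV libraries held 13.2, 13.7, and 11.6 CPM after 0 h, 39.4, 22.4, and 181 CPM after 4 h, and 72.5, 71.2, and 323 CPM after 8 h. The RV libraries held 11.9, 10.4, and 10.8 CPM after 0 h, 45.0, 27.5, and 208 CPM after 4 h, and 99.8, 106, and 483 CPM after 8 h. Even the lowest stored library of RV, with 27.5 CPM, was above the highest 0 h library, with 11.9 CPM. Its log2 fold change was 2.66 ± 0.84 (SE, edgeR adjusted p = 0.174) after 4 h and 3.60 ± 0.87 (SE, edgeR adjusted p = 0.0581) after 8 h in LV. In RV Tap1 had 3.11 ± 0.86 (SE, edgeR adjusted p = 0.0682) after 4 h and 4.42 ± 0.92 (SE, edgeR adjusted p = 0.0150) after 8 h.

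Tap2, the other chain of the transporter, moved less than Tap1 in the libraries numbered 1 and 2. In LV Tap2 was at 30.2, 33.7, and 34.3 CPM after 0 h, 40.6, 36.1, and 122 CPM after 4 h, and 49.3, 45.2, and 222 CPM after 8 h. Its RV libraries held 31.9, 27.3, and 32.1 CPM after 0 h, 39.2, 33.4, and 129.8 CPM after 4 h, and 52.0, 58.9, and 295 CPM after 8 h. After 4 h the libraries numbered 1 and 2 lay slightly above the 0 h libraries, and the library numbered 3 stood far above them. Tap2 had a log2 fold change of 1.02 ± 0.65 (SE, edgeR adjusted p = 0.513) and 1.69 ± 0.66 (SE, edgeR adjusted p = 0.171) in LV, where it was not called, and of 1.17 ± 0.72 (SE, edgeR adjusted p = 0.425) and 2.20 ± 0.74 (SE, edgeR adjusted p = 0.0837) in RV, where it was called after 8 h. Of the Tap2 counts 76.1% to 86.3% were assigned to transcript models that encode no protein, nearly all to 1 retained-intron model, in every group alike.

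Tapbp encodes tapasin of the peptide-loading complex. Its LV level was 51.5, 50.8, and 50.7 CPM after 0 h, 70.4, 57.6, and 181 CPM after 4 h, and 88.3, 74.8, and 306 CPM after 8 h. Its RV level was 56.3, 54.2, and 63.9 CPM after 0 h, 72.8, 67.1, and 224 CPM after 4 h, and 111, 113, and 418 CPM after 8 h. The stored libraries were above the 0 h libraries in both ventricles, narrowly so in those numbered 2 after 4 h. The fitted log2 change of Tapbp was 1.01 ± 0.57 (SE, edgeR adjusted p = 0.444) and 1.62 ± 0.58 (SE, edgeR adjusted p = 0.146) in LV, and 1.08 ± 0.61 (SE, edgeR adjusted p = 0.366) and 1.92 ± 0.62 (SE, edgeR adjusted p = 0.0745) in RV, where Tapbp was called after 8 h. Tapbp overlaps Zbtb22 on the same strand over 3422 bases, and Zbtb22 itself stayed between 11.8 and 18.1 CPM.

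Psmb8 replaces the constitutive subunit Psmb5 in the immunoproteasome. In LV Psmb8 was at 7.27, 8.00, and 9.49 CPM after 0 h, 13.2, 10.9, and 62.9 CPM after 4 h, and 22.8, 21.7, and 114 CPM after 8 h. Its level in RV was 7.22, 7.86, and 10.1 CPM after 0 h, 11.9, 8.64, and 66.3 CPM after 4 h, and 24.1, 28.3, and 178 CPM after 8 h. After 4 h in RV the library numbered 2 overlapped the 0 h libraries, and after 8 h no library did. The log2 fold change of Psmb8 was 1.81 ± 0.81 (SE, edgeR adjusted p = 0.323) and 2.69 ± 0.83 (SE, edgeR adjusted p = 0.108) in LV, and 1.81 ± 0.93 (SE, edgeR adjusted p = 0.313) and 3.24 ± 0.98 (SE, edgeR adjusted p = 0.0585) in RV, where it was called after 8 h. The share of Psmb8 counts in its model that encodes no protein was 7.56% to 20.9% at 0 h and 19.0% to 35.2% in stored libraries. Such shares also differed with storage for Psmb9 and Psmb10, as given below. For H2-K1 the share was 15.4% to 33.7% at 0 h and 17.9% to 29.9% in stored libraries. For Tap1 it was 14.2% to 34.7% at 0 h and at most 45.7% in stored libraries.

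Psmb9 replaces Psmb6 and was the least abundant of the 3 per length. Its level in LV was 2.87, 3.95, and 5.07 CPM after 0 h, 5.07, 3.76, and 18.7 CPM after 4 h, and 9.19, 7.76, and 36.9 CPM after 8 h. RV libraries held 2.43, 4.10, and 5.09 CPM after 0 h, 3.31, 3.07, and 18.5 CPM after 4 h, and 7.12, 6.05, and 45.5 CPM after 8 h of Psmb9. After 4 h the libraries numbered 1 and 2 were within the range of the 0 h libraries in both ventricles. Its log2 fold change was 1.21 ± 0.73 (SE, edgeR adjusted p = 0.481) and 2.18 ± 0.75 (SE, edgeR adjusted p = 0.131) in LV, and 1.12 ± 0.91 (SE, edgeR adjusted p = 0.588) and 2.39 ± 0.94 (SE, edgeR adjusted p = 0.122) in RV, with no call. Models that encode no protein held 20.7% to 36.3% of Psmb9 counts at 0 h and 31.8% to 44.3% in stored libraries. Psmb9 shares 212 bases with Tap1 on the opposite strand. The libraries were made with a directional kit, but the paper reports kallisto with default parameters. Whether reads of Tap1 counted toward Psmb9 was not tested.

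Psmb10 replaces Psmb7 and had the smallest change of the 10 in all 4 comparisons. In LV its level was 23.8, 22.8, and 30.1 CPM after 0 h, 28.6, 18.6, and 47.3 CPM after 4 h, and 43.8, 32.1, and 99.9 CPM after 8 h. In RV it was 23.2, 18.7, and 27.5 CPM after 0 h, 23.6, 17.9, and 51.1 CPM after 4 h, and 33.4, 31.2, and 116 CPM after 8 h. After 4 h, 1 library of each ventricle, that numbered 2, lay below all 0 h libraries, and the libraries numbered 3 lay above them. The log2 fold change of Psmb10 was 0.30 ± 0.44 (SE, edgeR adjusted p = 0.810) and 1.2 ± 0.44 (SE, edgeR adjusted p = 0.152) in LV, and 0.44 ± 0.55 (SE, edgeR adjusted p = 0.768) and 1.42 ± 0.56 (SE, edgeR adjusted p = 0.124) in RV, with no call.

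The constitutive subunits Psmb5, Psmb6, and Psmb7 gave 0 calls by edgeR and by DESeq2 in the 4 comparisons, with 0 unadjusted p-values under 0.05. The TPM ratio of Psmb8 to Psmb5 was 0.0754 to 0.0989 at 0 h and 0.126 to 1.13 in stored LV, and 0.0811 to 0.112 at 0 h and 0.103 to 2.41 in stored RV. Psmb9 to Psmb6 was 0.0205 to 0.0352 at 0 h and 0.0356 to 0.261 in stored LV. In RV it was 0.0159 to 0.0343 and 0.0187 to 0.364. Psmb10 to Psmb7 went from 0.255 to 0.299 at 0 h to between 0.229 and 1.23 in stored LV, and from 0.27 to 0.348 to between 0.22 and 2.05 in stored RV. The TPM of a gene sums all its transcript models, those that encode no protein included. For Psmb10 the 1 coding model had a mean of 24.5 TPM over the libraries. The largest of its 6 models that encode no protein had 14.0 TPM. These 6 models held 19.06% to 25.91% of Psmb10 counts at 0 h. They held 34.65% to 40.42% in stored libraries numbered 3 and 25.77% to 32.98% in the other stored libraries. The part of such models in the ratios was not tested. The mean log2 ratio was higher in the 6 stored than in the 3 unstored libraries for all 3 pairs in both ventricles, by 0.67 to 1.85. Without the stored libraries numbered 3 the difference was 0.061 (Psmb10 to Psmb7 in RV) to 0.98 (Psmb8 to Psmb5 in LV), with unadjusted exact permutation p of 0.0571 to 0.886. None of the 6 two-sided exact permutation tests passed after adjustment (adjusted p = 0.179 to 0.429), where the smallest unadjusted p that 6 against 3 allows is 0.0119.

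**Figure D3:**
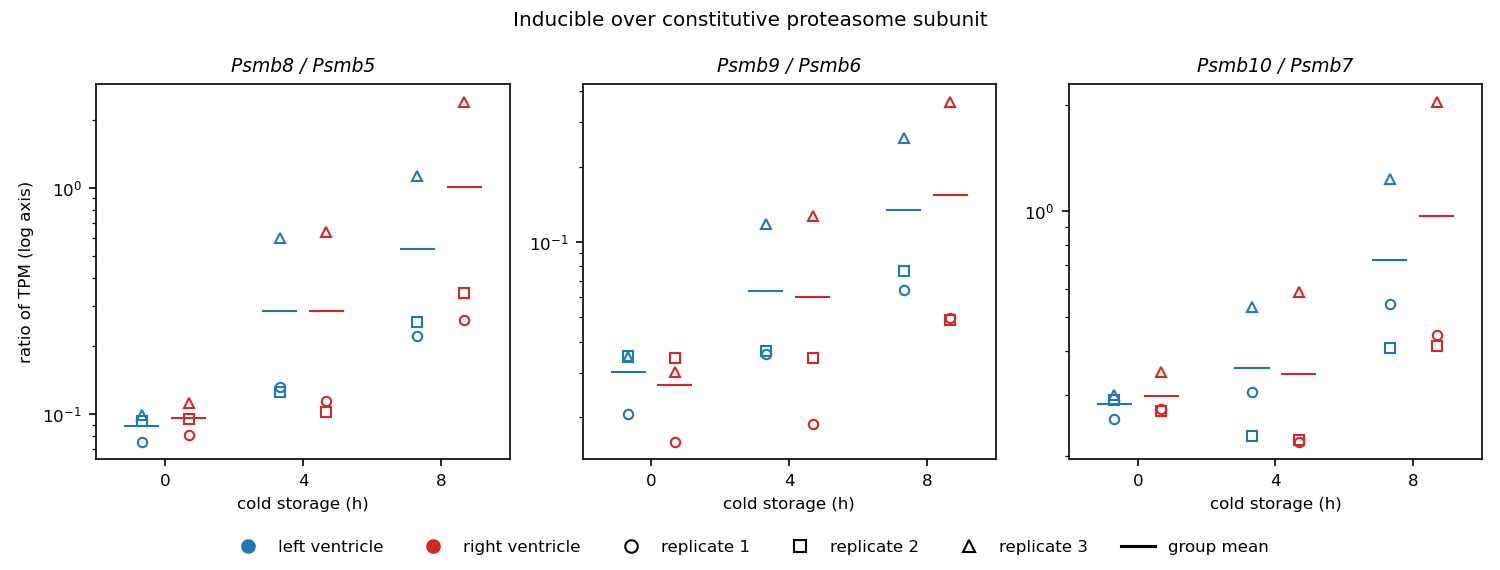
TPM ratio (log axis) of each inducible proteasome subunit to the constitutive subunit it replaces, in every library of LV and RV by hours of CIS, with 1 point for each library and bars at the group means. After 8 h the libraries numbered 3 exceed a ratio of 1 for Psmb8 to Psmb5 and Psmb10 to Psmb7, and reach 0.364 for Psmb9 to Psmb6. The TPM of a gene sums all its transcript models, those that encode no protein included.

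Nlrc5, the transactivator, had the widest spread among stored libraries. In LV it was at 5.43, 6.48, and 5.63 CPM after 0 h, 10.6, 8.62, and 107 CPM after 4 h, and 22.9, 17.9, and 252 CPM after 8 h. Nlrc5 in RV was at 4.97, 4.84, and 6.07 CPM after 0 h, 9.76, 9.26, and 138 CPM after 4 h, and 23.9, 31.5, and 365 CPM after 8 h. The stored libraries did not overlap the 0 h libraries, and the library numbered 3 was above the next by more than 10-fold in each of the 4 stored groups. Nlrc5 had log2 fold changes of 2.85 ± 1.23 (SE, edgeR adjusted p = 0.308) and 4.07 ± 1.29 (SE, edgeR adjusted p = 0.115) in LV, with no call, and 3.33 ± 1.32 (SE, edgeR adjusted p = 0.179) and 4.78 ± 1.41 (SE, edgeR adjusted p = 0.0540) in RV, where it was called after 8 h.

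The stored libraries numbered 3 were the highest of their group for all 10 genes, at both times and in both ventricles. Relative to the mean of the 0 h libraries, the median fold of the 10 genes in them was 3.69 after 4 h and 6.66 after 8 h in LV, and 4.06 and 10.006 in RV. The other 8 stored libraries had medians of 1.30 to 2.92. For Nlrc5 the library numbered 3 reached 43.1-fold after 8 h in LV and 68.9-fold in RV. The gene with the greatest fold in each of the other 8 was Tap1, with 1.75 to 9.60.

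In fits without these 4 libraries, an alternative chosen after seeing the data, the log2 fold changes were smaller and more genes passed the test at 4 h. H2-K1 (0.78, adjusted p = 0.0892), Tap1 (1.27, adjusted p = 0.0185), and Nlrc5 (0.72, adjusted p = 0.0561) were called higher in LV after 4 h (4.5% of all genes). In RV after 4 h 5 genes were called (8.1% of all genes), H2-K1, H2-D1, B2m, Tap1, and Nlrc5. After 8 h 8 genes were called in LV, all but Tap2 and Psmb10 (4.74% of all genes), and 8 in RV, all but Psmb9 and Psmb10 (10.9%). Tap1 then had a log2 fold change of 2.47 in LV (adjusted p = 0.000584) and 3.21 in RV (adjusted p = 0.000117), and Nlrc5 1.79 (adjusted p = 0.000666) and 2.38 (adjusted p = 0.000143). After 4 h Psmb10 in LV (-0.11) and RV (-0.14) and Psmb9 in RV (-0.26) changed to values below 0.

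Markers of other cells were read beside these results. All 5 T and NK cell markers were under 1 CPM in every library, with sums of 0.156 to 0.741 CPM, and all 3 B cell markers were too, with sums of 0.0675 to 1.29 CPM. Neutrophil markers summed to at most 9.59 CPM, in the LV library numbered 1 after 8 h, with Ly6g at no more than 0.123 CPM. The neutrophil genes S100a8 (at most 3.08 CPM) and S100a9 (at most 6.38 CPM) were called higher in LV after 8 h. In RV 0 of the 3 neutrophil genes were tested by that fit. DESeq2 and a fit of all 18 libraries each called 2 of them higher in RV after 8 h. Macrophage markers summed to 59.9 to 167 CPM, and their mean in stored libraries was 123 CPM in those numbered 1, 98.0 in those numbered 2, and 72.5 in those numbered 3. Their mean was thus lowest where the class I genes were highest, though the macrophage gene Adgre1 was called higher in RV after 8 h (log2 fold change 0.90, adjusted p = 0.0256). Fibroblast markers summed to 449 to 627 CPM at 0 h and 449 to 1110.5 CPM in stored libraries, and Tcf21 was called higher in RV after 8 h (0.98, adjusted p = 0.0453). The cardiomyocyte gene Myh6 was called lower in LV after 8 h (-0.63, adjusted p = 0.0410). Cardiomyocyte markers had stored means of 50905, 50217, and 44962 CPM in the libraries numbered 1, 2, and 3. Their lowest sum, 25973 CPM, was in the RV library numbered 3 after 8 h. That library also had the highest TPM sum of the 10 class I genes, 4060.6. Myh6 was at 12721 to 34879 CPM in stored libraries numbered 3 and 23196 to 33826 CPM in those numbered 1 and 2. Endothelial markers summed to 358 to 809 CPM with stored means of 689.7, 576, and 514 in the libraries numbered 1, 2, and 3. Atrial markers summed to 7.11 to 252 CPM. Dendritic cell markers summed to 15.3 to 20.7 CPM at 0 h and 28.9 to 60.7 CPM in stored libraries, of which Zbtb46, also made by endothelial cells, was called in all 4 comparisons and Flt3 and Siglech stayed under 1 CPM. The part that cell composition or the differing Ddx3y level played in the class I values was not tested.

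Comparison of 8 h with 4 h asked whether longer CIS moved the genes further. All 10 were higher after 8 h than after 4 h in the fitted values, with log2 differences of 0.61 to 1.22 (median 0.79) in LV and 0.84 to 1.45 (median 1.14) in RV. edgeR called 0 of the 10 in either ventricle, where it called 0% of all genes, and DESeq2 called 0. The unadjusted p was under 0.05 for 0 genes in LV and 3 in RV, for 3 and 7 with the replicate block, and for 8 and 10 without the libraries numbered 3.

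The next comparison asked whether LV and RV differed. In pairs of libraries with the same number, RV was above LV after 8 h in all 3 pairs for 8 of the 10 genes, all but Psmb9 and Psmb10, against 24.1% of all genes. At 0 h this held for 1 gene, Tapbp (21.2% of all genes), and after 4 h for H2-D1, Tap1, and Tapbp (21.4%). The median ratio of RV to LV over the 10 genes was 0.944, 0.861, and 1.03 in the pairs numbered 1 to 3 at 0 h. It was 1.00, 1.02, and 1.06 after 4 h, and 1.14, 1.30, and 1.46 after 8 h.

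Per gene, the RV to LV ratio after 8 h was 1.42, 1.36, and 1.47 for H2-K1 and 1.36, 1.29, and 1.52 for H2-D1. It was 1.38, 1.48, and 1.5 for Tap1, and 1.26, 1.51, and 1.37 for Tapbp. B2m (1.22, 1.04, and 1.49), Tap2 (1.05, 1.30, and 1.33), Psmb8 (1.06, 1.30, and 1.55), and Nlrc5 (1.04, 1.76, and 1.45) varied more between pairs. H2-K1 and Tap1 had the narrowest ranges of ratios. Psmb9 (0.775, 0.779, and 1.23) and Psmb10 (0.763, 0.973, and 1.16) were higher in RV in the pair numbered 3 alone.

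**Figure D4:**
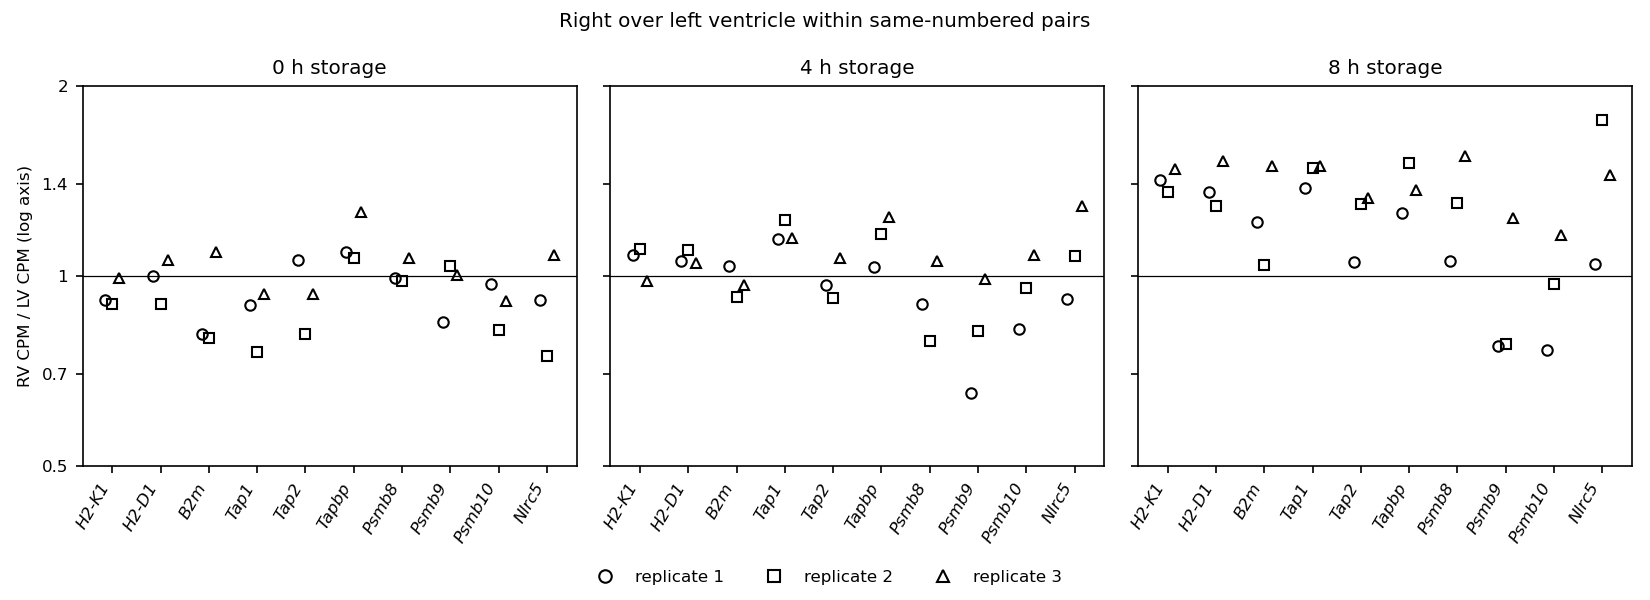
Ratio of the RV to the LV level (log axis, 1 marks equal levels) of each of the 10 genes in pairs of libraries with the same number after 0, 4, and 8 h of CIS. After 8 h all 3 points lie above 1 for 8 genes, and Psmb9 and Psmb10 have points on either side.

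edgeR called 0 of the 10 genes between the ventricles at 0 h (0.159% of all genes in either direction), 4 h (0.0133%), and 8 h (0.0331%), with 0 unadjusted p-values under 0.05, and DESeq2 called 0. Same-numbered LV and RV libraries deviated together at each time, so for the ventricles the block was the number within each storage time. With the replicate block 0 genes were called at 8 h (8.78% of all genes), though 8 had an unadjusted p under 0.05. These 8, all but Psmb9 and Psmb10, were lower in LV and passed the threshold on the adjusted p there (0.000606 to 0.0763), and all 8 stayed under the 1.5-fold minimum. Tap1 (log2 LV against RV -0.54 ± 0.070, adjusted p = 0.000606) and H2-K1 (-0.50 ± 0.080, adjusted p = 0.00154) had the smallest adjusted p. For the difference between the ventricles in the change from 0 to 8 h, edgeR called 0 genes without the block (0% of all genes, 0 unadjusted p-values under 0.05). With it 2 were called, both with a smaller rise in LV (4.72% of all genes). They were H2-K1 (-0.60 ± 0.11 on the log2 scale, adjusted p = 0.00987) and Tap1 (-0.75 ± 0.11, adjusted p = 0.00243). H2-D1 (-0.49, adjusted p = 0.0318) and Tap2 (-0.39, adjusted p = 0.0913) passed the adjusted p there but stayed under the 1.5-fold minimum. Of the 10 genes, 8 had an unadjusted p under 0.05 with the block, as did 3480 of 15093 genes. DESeq2 without a block called 0. For the change from 0 to 4 h 0 genes were called with or without the block (0.305% of all genes with it and 0% without), with 1 unadjusted p under 0.05 with the block and 0 without, and DESeq2 called 0.

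Class I heavy chain genes are near-identical over long stretches, and the quantifier divides shared reads between them, so that the level of 1 such gene is less certain than their sum. The 32 H2 class I genes listed in the annotation were therefore added, of which H2-D1 gave 27.2% and H2-K1 24.7% of counts. The sum in LV was 642, 514, and 471 CPM at 0 h, 1108, 819.9, and 2189.9 CPM after 4 h, and 1431, 1224, and 4072 CPM after 8 h. In RV it was 612, 440.4, and 478 CPM at 0 h, 1175, 922, and 2296 CPM after 4 h, and 2068, 1639, and 6135 CPM after 8 h. The stored and the 0 h libraries did not overlap. The log2 fold change of the sum was 1.34 (adjusted p = 0.235) and 2.05 (adjusted p = 0.0603) in LV and 1.54 (adjusted p = 0.126) and 2.72 (adjusted p = 0.0142) in RV, so that the sum was called after 8 h in both ventricles. The call in LV was lost without LV_0h replicate 1 (2.19), 2 (2.01), or 3 (1.959), or without LV_8h replicate 3 (1.28). With the replicate block it was called after 4 h in RV too (1.35, adjusted p = 0.0593).

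Other class I and class I-related heavy chains were read from a list of 18 genes, 14 of them tested. Of these 0 were called in LV after 4 h (5 with an unadjusted p under 0.05, 1 by DESeq2), 4 in LV after 8 h, 4 in RV after 4 h, and 7 in RV after 8 h, all higher. The median log2 fold change was 0.97, 1.74, 1.03, and 1.93 in the same order. Without the stored libraries numbered 3 the medians were 0.21, 0.81, 0.22, and 0.78, with 4, 7, 4, and 8 genes called higher and 1, H2-T24, called lower in RV after 4 h. Of the H2-Q genes, H2-Q4 went from 44.6 to 70.1 CPM at 0 h to 104 to 1175 CPM in stored libraries. H2-Q6, H2-Q7, and H2-Q10 were called in the same 3 comparisons as H2-Q4. H2-T22, a ligand of some gamma-delta T cells, and H2-T23, which makes Qa-1 and shows leader peptides of class I chains to NK cells, were called in RV after 8 h alone, with log2 fold changes of 2.24 (adjusted p = 0.0920) and 1.84 (adjusted p = 0.0724).

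The remaining genes of peptide loading and trimming moved little by comparison. Of 13, among them the chaperones Calr, Canx, and Pdia3 and the trimming peptidase Erap1, 0 were called after 4 h in either ventricle (1 in LV and 3 in RV with an unadjusted p under 0.05, 0 by DESeq2). After 8 h Tapbpl, a relative of tapasin that edits peptides (2.42 ± 0.86 (SE, edgeR adjusted p = 0.0950)), and Sec61a1, the channel of the endoplasmic reticulum (0.67 ± 0.18 (SE, edgeR adjusted p = 0.0447)), were called higher in RV. Ide, a peptidase of the cytosol, was called lower in LV (-0.88 ± 0.17 (SE, edgeR adjusted p = 0.0319)) and RV (-0.96 ± 0.25 (SE, edgeR adjusted p = 0.0347)). The median log2 fold change of the 13 was 0.11 to 0.25. Of 7 proteasome activator and assembly genes, Psme2, a subunit of the PA28 activator, was called higher in RV after 8 h (1.25 ± 0.42 (SE, edgeR adjusted p = 0.0842)) and the other 6 were not called in any of the 4. Without the stored libraries numbered 3 Psme2 (0.56) and Sec61a1 (0.47) were not called in RV after 8 h, and Tapbpl was called in LV too.

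Genes of factors that bind class I promoters were read from a list of 14. In LV 3 were called higher after 4 h and 4 after 8 h, and in RV 6 and 8, with 0 called lower. Without the stored libraries numbered 3 3 and 2 passed in LV after 4 and 8 h, and 6 and 7 in RV, and Irf1 was not called. Nfkb1, a subunit of NF-kB, was at 40.9 to 54.5 CPM at 0 h and 105 to 321 CPM in stored libraries, and was called in all 4, as was Irf8. Rela, the partner of Nfkb1, Nfya of the factor that binds the Y box, and Creb1 were called in RV at both times. Irf1, an interferon-induced activator of class I genes, was called after 8 h in LV (1.73 ± 0.45 (SE, edgeR adjusted p = 0.0716)) and RV (2.18 ± 0.60 (SE, edgeR adjusted p = 0.0430)). Irf2, another member of the interferon regulatory factor family, was not called, at 16.8 to 20.6 CPM at 0 h, 17.6 to 28.5 CPM in stored libraries numbered 1 and 2, and 55.7 to 112 CPM in those numbered 3.

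Interferons themselves were scarce. Ifng was at 0 to 0.147 CPM, and Ifnb1 was at 0.0327 to 1.38 CPM at 0 h, 1.36 to 5.22 CPM in stored libraries numbered 1 and 2, and 0.173 to 1.18 CPM in those numbered 3. Ifnb1 was thus lower in the stored libraries where the class I genes were higher. It was not called in any of the 4 comparisons, and with the replicate block it was called in RV after 4 h (adjusted p = 0.0399) and 8 h (adjusted p = 0.0260). Of the 8 tested among 14 interferon, receptor, and kinase genes, 1 was called higher in LV after 4 h and 3 after 8 h, and 2 and 4 in RV. Without the stored libraries numbered 3 1 was called at each time in LV and 3 at each time in RV. Jak2, a kinase of the interferon gamma receptor, was called in all 4, with 1.83 ± 0.34 (SE, edgeR adjusted p = 0.0301) after 8 h in LV and 2.54 ± 0.37 (SE, edgeR adjusted p = 0.00412) in RV. Ifngr1 was called after 8 h in both ventricles, Ifnar2 in 3 comparisons, and Jak1 in RV after 8 h.

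MHC class II genes, which show peptides from outside the cell, were read beside them. Of 8 tested in LV, 4 were called after 8 h, Cd74 (1.00 ± 0.16 (SE, edgeR adjusted p = 0.0171)), H2-Aa (0.79 ± 0.16 (SE, edgeR adjusted p = 0.0351)), H2-Ab1 (1.01 ± 0.22 (SE, edgeR adjusted p = 0.0416)), and H2-Eb1 (0.82 ± 0.21 (SE, edgeR adjusted p = 0.0640)). Of 9 tested in RV, 2 were called after 8 h, Cd74 and H2-Ab1, and 4 without the stored libraries numbered 3. After 4 h 0 were called (1 unadjusted p under 0.05 in LV, 0 in RV, 0 by DESeq2). Unlike the class I genes these were not highest in the libraries numbered 3, where Cd74 was at 94.1 to 164 CPM against 86.1 to 201 CPM in the other stored libraries. CD8 and NK receptor genes were at most 0.450 CPM, and 0 of the 8 were called, with 0 to 2 tested in a comparison, 0 unadjusted p-values under 0.05, and 0 calls by DESeq2.

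**Figure D5:**
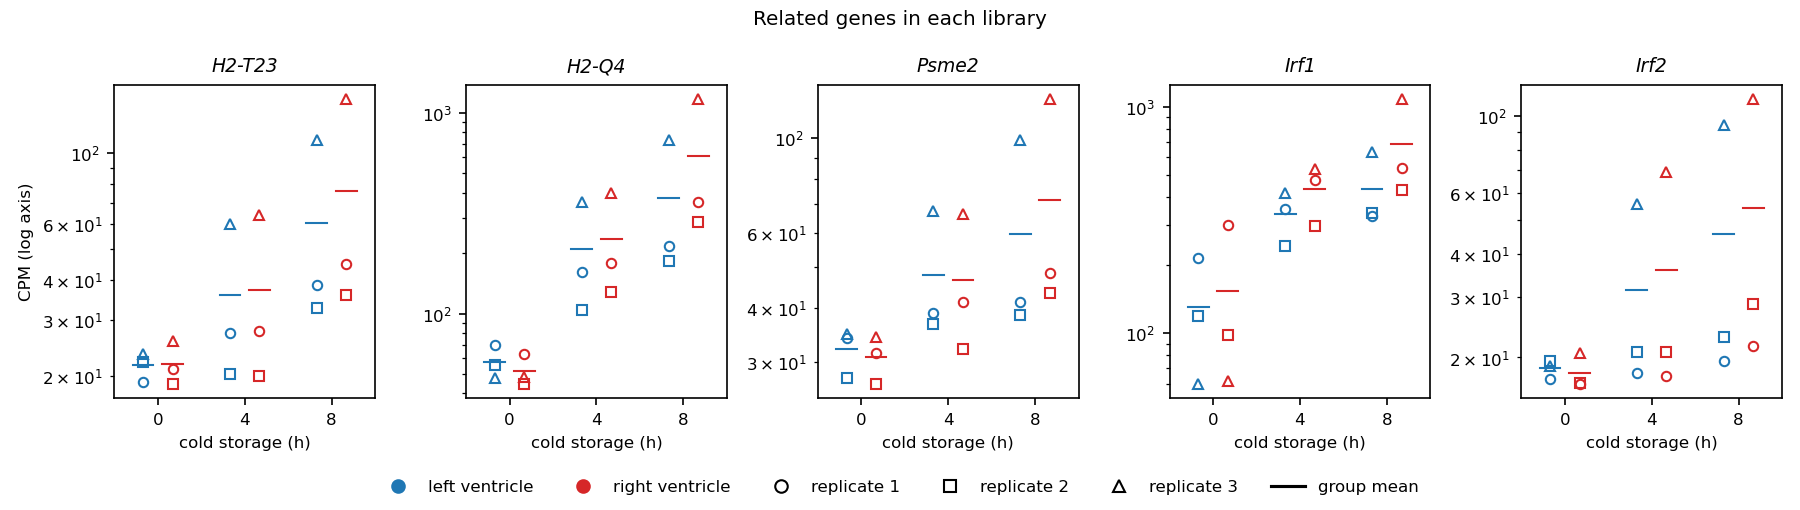
Level in CPM (log axis) of the class I-related heavy chain genes H2-T23 and H2-Q4, the proteasome activator gene Psme2, and the transcription factor genes Irf1 and Irf2 in every library of LV and RV by hours of CIS, with bars at the group means. Irf2 is at 55.7 to 112 CPM in the stored libraries numbered 3 and at 17.6 to 28.5 CPM in the other stored libraries, whereas H2-Q4 lies above the 0 h libraries in all of them.

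Over the 18 libraries, the mean standardized log2 CPM of the 10 genes was compared with that of each of 15083 other genes, as a description. The 10 with the highest Pearson r were Bst2 (0.996), Parp10 (0.992), Mlkl (0.991), Ifi35 (0.990), Hdc (0.990), Zc3h7a (0.989), Lgals9 (0.988), H2-T23 (0.987), Daxx (0.986), and Isg20 (0.986). Bst2 encodes tetherin and went from 10.2 to 172 CPM. The stored libraries numbered 3 share their high values, and deviations from each group's mean keep that excess. With such deviations 3 of these 10 remained among the 10 highest, and the 10 had an r of 0.972 (Daxx) to 0.994 (Bst2). Each of the 10 class I genes had an r of 0.928 (Psmb10) to 0.991 (Psmb8) with the mean of the other 9.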

How the data were processed

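RNA of 18 libraries, 3 for each ventricle and storage time, was sequenced after library construction with a directional kit. For each transcript the authors deposited an estimated count from kallisto, which was run on GRCm38 transcripts (version given in the methods of the study), beside a TPM value, a length, and an effective length. Estimated counts were summed to genes by transcript identifier with GENCODE M21 and rounded, with 1259 of 111462 transcripts unmatched (at most 0.383% of counts). With 22552581 to 46236771 counts per library and at least 79 for each of the 10 genes, the spread between libraries limits the precision more than counting does.

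Low genes were removed by filterByExpr, library sizes were adjusted by TMM, and edgeR 4.0.16 (limma 3.58.1, R 4.3.3) gave quasi-likelihood p-values with Benjamini-Hochberg adjustment over all genes tested. A call needed an adjusted p under 0.1 and a fold over 1.5, the thresholds of the study. The 9 libraries of a ventricle entered the comparisons of storage times and all 18 those of the ventricles. CPM values use TMM-adjusted library sizes, and levels of different genes were compared by TPM that the authors deposited. Ratios of TPM were tested by two-sided exact permutation. Python 3.11.15, pandas 2.3.3, numpy 2.4.6, and matplotlib 3.10.9 were used. The edgeR fits were tested on simulated data.

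The 10 genes and the lists were chosen with earlier results of these data known. All 10 were named. From the lists, genes called in at least 1 comparison with 0 h were named, or the 6 with the highest mean CPM where more were called, and uncalled genes where a count would be misread. One gene of a list is not reported here. Nothing in the labels says that libraries of a group came from separate hearts, so p-values measure only the spread between these libraries. Nor do they say that a replicate number is a heart. Deviations from group means of same-numbered libraries correlated over 0.1 for all 3 numbers between LV and RV at each time (mean r 0.442 at 0 h, 0.562 at 4 h, and 0.600 at 8 h), between LV 4 and 8 h (0.442), and among the RV groups (0.171 for 0 and 4 h, 0.217 for 0 and 8 h, and 0.416 for 4 and 8 h), and not for all 3 between LV 0 h and LV 4 or 8 h (0.126 and 0.0264).

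Alternatives were DESeq2 1.42.0, size factors by RLE, all genes kept without a filter, transcript length offsets, all 18 libraries in 1 fit, no minimum fold, the replicate block, each library left out in turn, and, added later, the stored libraries numbered 3 left out.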

Additional observations from a re-analysis of the deposited data

Results flagged for a closer look

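The rise from 0 to 8 h was called different between the ventricles for 2 of the 10 genes in the test of the difference itself with the replicate block. H2-D1 and Tap2 passed the adjusted p there but not the 1.5-fold minimum. The LV change minus the RV change was -0.60 for H2-K1 and -0.75 for Tap1 on the log2 scale, and RV was above LV after 8 h in 3 of 3 same-numbered pairs for both. Without the block the values were -0.63 and -0.78, and edgeR called neither. With 1 library left out at a time and no block, the value ranged from -1.36 to 0.15 for H2-K1 and from -1.91 to 0.39 for Tap1.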

How the results depend on the processing

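The 10 genes kept a log2 fold change above 0 in the 4 comparisons with 0 h under RLE size factors, length offsets, all 18 libraries, no filter, and DESeq2, and no minimum fold left the counts of called genes within 1.5 times. DESeq2 called 3 genes in LV after 4 h, 7 in LV after 8 h, and 4 in RV after 4 h. Over all genes DESeq2 called 693 and 1161 of 15020 higher in LV after 4 and 8 h, and 1205 of 15049 in RV after 4 h. It gave an adjusted p for 9 of the 10 in both LV comparisons with 0 h and for 7 in RV and between the ventricles. Without the filter 2 were called in RV after 4 h. With the replicate block 9 were called in LV after 8 h (8.1% of all genes), though there the numbers did not pair the libraries by the check, 4 in RV after 4 h, and 2 for the difference between the ventricles in the change to 8 h, and the summed heavy chains were called in RV after 4 h (1.35). The block changed no count of the 10 genes by more than 1.5 times elsewhere.

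Without the stored libraries numbered 3, the counts were 3 in LV after 4 h, 8 in LV after 8 h, and 5 in RV after 4 h. Psmb10 turned to -0.11 in LV and -0.14 in RV after 4 h and Psmb9 to -0.26 in RV, and the sum of heavy chains was called after 4 h at 0.83 in LV and 1.05 in RV. With deviations from group means, 3 of the 10 most similar genes remained among the 10 highest, and the 10 had an r of 0.972 to 0.994.

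With 1 library left out in turn, 0 to 4 genes were called in LV after 4 h (4 without LV_8h replicate 3) and 0 to 10 in LV after 8 h. The latter count was 0 without any one of the 0 h libraries, 1 without LV_8h replicate 3, 7 without LV_4h replicate 3, and 10 without LV_8h replicate 2. In RV after 4 h it was 0 to 5, with 0 without any one 0 h library or RV_4h replicate 3, 2 without RV_8h replicate 2, and 5 without RV_8h replicate 3. In RV after 8 h it was 4 to 10, with 4 without any one 0 h library or RV_8h replicate 3. Over all genes the number called higher moved too. In LV after 8 h it was 883 without LV_4h replicate 3 and 1422 without LV_8h replicate 2. In RV after 4 h it was 902 in the main fit and 821, 235, and 273 without RV_0h replicates 1, 2, and 3. It was 647 there without RV_4h replicate 3, 1015 without RV_8h replicate 2, and 1219 without RV_8h replicate 3. The summed heavy chains ranged from 0.83 to 1.61 in LV after 4 h, 1.28 to 2.405 in LV after 8 h, and 1.05 to 1.79 in RV after 4 h. Their call in LV after 8 h was lost without any one 0 h library or LV_8h replicate 3, and the call in RV after 4 h was gained without RV_8h replicate 2 or 3, and in LV after 4 h without LV_8h replicate 3. Psmb10 ranged from -0.11 to 0.57 in LV and -0.14 to 0.72 in RV after 4 h, and Psmb9 from -0.26 to 1.51 in RV. Between LV and RV after 8 h, H2-K1 ranged from -1.25 to 0.26 and Tap1 from -1.68 to 0.61. Between the ventricles' changes to 8 h, the value of H2-K1 ranged from -1.36 to 0.15 and Tap1 from -1.91 to 0.39. Fewer libraries enter these fits, and the cause of the other shifts was not tested.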
